A study of Mus musculus with 12 samples.

Results

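Id proteins and E proteins are 2 families of helix-loop-helix proteins that act on each other. Their genes were taken by symbol from a table of 14560 genes: 6 symbols were looked up, Id1, Id2 and Id3 for the Id proteins and Tcf3, Tcf4 and Tcf12 for the E proteins. Rows were found for 5 of the 6, namely Id1, Id2, Tcf3, Tcf4 and Tcf12. Id3 was not analysed here. The 5 genes were followed in mouse bone marrow through 4 sorted populations of cells, each with 3 RNA-seq libraries, 12 in all.

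The series text describes 3 C57Bl/6J mice, whose age is not given in the sources used here, with no treatment and no altered allele in any group. DN-GMPs are granulocyte-monocyte progenitors sorted as c-Kit+ Sca1- CD34+ CD16/32+ cells that lack surface E-cadherin (CDH1) as well as FceRIa, a chain of the IgE receptor. Pro-BMPs carry the same progenitor markers and E-cadherin but no FceRIa, and Pre-BMPs are labelled FceRIa+ and CDH1-. All 3 progenitor populations were also gated against B220, CD3, Ter119, CD11b and Gr1. Basophils were sorted as c-Kit- CD49b+ FceRIa+ cells, gated against B220, CD4, CD8a, Ter119 and Sca1. The label for Pre-BMPs gives E-cadherin as absent, but Cdh1 RNA averaged 147 CPM in Pre-BMPs and 42.8 CPM in Pro-BMPs, where CPM is reads per 1000000 of the scaled library size. Libraries are numbered within each population, but no label ties a number to a mouse, and the p-values below therefore measure only the spread between these libraries.

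E proteins are transcription factors that bind E-box sequences as dimers, with each other or with a tissue-restricted partner, and they are best known for directing lymphocyte development. Each E protein has a basic region that touches DNA, followed by a helix-loop-helix through which it dimerises. Id proteins have the helix-loop-helix but lack the basic region, so an E protein held in a dimer with an Id protein does not bind DNA. The coding sequence shows that difference. The lines below give the coding strand of each gene from the GENCODE M21 transcripts (GRCm38), 5′ to 3′, with the helix-loop-helix stretch in capitals and the 15 codons before it in lower case.
Id1: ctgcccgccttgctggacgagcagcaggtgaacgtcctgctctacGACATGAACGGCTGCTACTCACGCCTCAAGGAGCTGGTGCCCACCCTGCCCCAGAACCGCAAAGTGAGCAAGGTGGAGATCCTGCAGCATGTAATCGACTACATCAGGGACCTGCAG
Id2: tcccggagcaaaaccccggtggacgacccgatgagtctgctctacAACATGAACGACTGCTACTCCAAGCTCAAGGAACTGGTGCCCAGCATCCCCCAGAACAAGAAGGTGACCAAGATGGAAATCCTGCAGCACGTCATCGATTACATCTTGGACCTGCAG
Tcf3: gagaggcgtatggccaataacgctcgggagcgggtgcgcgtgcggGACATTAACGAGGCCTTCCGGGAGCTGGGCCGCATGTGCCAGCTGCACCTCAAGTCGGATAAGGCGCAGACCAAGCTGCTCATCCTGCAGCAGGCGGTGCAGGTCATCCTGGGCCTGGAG
Tcf12: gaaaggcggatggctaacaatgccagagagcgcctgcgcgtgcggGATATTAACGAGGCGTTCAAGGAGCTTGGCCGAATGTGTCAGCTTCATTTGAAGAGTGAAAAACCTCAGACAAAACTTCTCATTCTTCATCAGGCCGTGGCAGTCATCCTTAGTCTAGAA
The stretch in capitals was found by aligning the translations of Id2 and Tcf3 and was carried over to the other genes. The 15 codons before it hold 6 arginine or lysine codons in Tcf3, 6 in Tcf12 and 6 in Tcf4, whose sequence is not printed, against 2 in Id2 and 0 in Id1. Within the capitals, Id1 and Id2 share 95 of 117 bases (81.2%) and Tcf3 and Tcf12 share 87 of 120 (72.5%).

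Each printed stretch lies within 1 coding exon. On GRCm38 they are at chr2:152736476-152736637 on the plus strand for Id1, and at chr12:25095783-25095944 for Id2, chr10:80410411-80410575 for Tcf3 and chr9:71856318-71856482 for Tcf12, all 3 on the minus strand. The genes themselves span chr2:152736251-152737410 (Id1, ENSMUSG00000042745), chr12:25093799-25097140 (Id2, ENSMUSG00000020644), chr10:80409514-80433647 (Tcf3, ENSMUSG00000020167) and chr9:71842688-72111871 (Tcf12, ENSMUSG00000032228). Tcf4 is ENSMUSG00000053477. In this table Tcf3 and Tcf4 are the E-protein genes and not the Wnt-pathway factors that once shared those names. No exon of the 5 genes overlapped an exon of another annotated gene. The values are per gene, so alternative transcripts of Tcf3, which encode E proteins with different basic helix-loop-helix exons, cannot be told apart.

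Each library had between 29762981 and 42502405 reads on listed genes. A library without a read of a gene allows up to 3 reads, or 0.0512 to 0.0745 CPM, for counting error only. All 5 genes had reads in all 12 libraries, the fewest being the 43 to 149 reads of Id2 in DN-GMPs. The population labels were set beside 20 basophil markers, which summed to 526 to 667 CPM in DN-GMPs, 2121 to 2630 CPM in Pro-BMPs, 7124 to 8475 CPM in Pre-BMPs and 47162 to 51754 CPM in basophils. Of these, Fcer1a and Itga2 (CD49b) encode proteins used in the sorting, so for them the gates fixed part of the outcome. Prss34 and Mcpt8 averaged 21666 and 7330 CPM of the basophil sum. Over the same series, 20 neutrophil markers summed to 20393 to 23492, 19259 to 21379, 5758 to 7185 and 4396 to 5470 CPM from DN-GMPs to basophils. In the same order, 13 of 17 monocyte and dendritic cell markers had rows and summed to 2573 to 2941, 741 to 903, 588 to 622 and 866 to 952 CPM. The 10 eosinophil markers summed to 26.3 to 48.3, 1915 to 3072, 2288 to 3829 and 1328 to 1722 CPM, and Ear1, Ear2, Ear6, Il5ra and Alox15 of that list had 0 reads in all DN-GMP libraries. For mast cell markers, 8 of 16 had rows and summed to 279 to 379, 968 to 1109, 2375 to 2492 and 3633 to 4116 CPM. For erythroid and megakaryocyte markers, 14 of 16 had rows and summed to 82.2 to 139, 190 to 249, 755 to 891 and 1267 to 1665 CPM. Cpa3, also on the basophil list, averaged 3584.5 CPM of the mast cell sum in basophils. By the test given below, 1 of the 8 mast cell rows was higher and 4 lower in basophils than in Pre-BMPs. Of the 14 erythroid and megakaryocyte rows, 1 was higher and 7 lower there, against 13.9% of all genes higher and 16.5% lower. The median log2 change was -3.69 for the 8 mast cell rows and -2.86 for these 14, against -0.10 over all genes. Cma1, a mast cell protease, averaged 0.554 CPM in basophils and 141 CPM in Pre-BMPs, and Klf1, an erythroid factor, averaged 8.80 CPM in basophils and 124 CPM in Pre-BMPs. The part of neutrophil, monocyte, eosinophil, mast and erythroid cells or their precursors in the changes described here was not tested.

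Both Id genes rose towards basophils, and of the E-protein genes Tcf4 fell. In basophils against DN-GMPs, Id2 RNA was 63.1-fold and Id1 RNA 15.7-fold higher, Tcf4 RNA was 2.04-fold lower, and Tcf3 and Tcf12 did not pass the test. All tests used limma on the deposited log2 values of the 12 libraries, with Benjamini-Hochberg adjustment over 14560 genes and a call at an adjusted p under 0.05. Across the 4 populations the limma F-test called Id1 (adjusted p = 1.29e-06), Id2 (6.08e-07) and Tcf4 (0.0148) but not Tcf12 (0.106) or Tcf3 (0.725), against 46.8% of all genes.

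Id2, the Id protein that natural killer cells and other innate lymphoid cells depend on, changed at every step. It stood at 1.83, 3.07 and 1.07 CPM in the DN-GMP libraries and at 5.70, 5.78 and 8.18 CPM in the Pro-BMP libraries. Levels were 48.4, 38.6 and 31.7 CPM in the Pre-BMP libraries and 103, 117 and 127 CPM in the basophil libraries. The 4 populations did not overlap for Id2 and each later one lay above the one before it. Since the libraries are bulk samples, fewer cells that hold a transcript and less of it per cell cannot be told apart.

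Between neighbouring populations, the log2 change of Id2 was 1.82 (SE 0.354, limma adjusted p = 0.0182) in Pro-BMPs against DN-GMPs, a 3.54-fold higher level. It was 2.59 in Pre-BMPs against Pro-BMPs (adjusted p = 0.000978 with limma), or 6.03-fold higher. It was 1.57 in basophils against Pre-BMPs (adjusted p = 0.00600 with limma), or 2.96-fold higher. In each of the 6 pairs of populations, 3.21% to 10.3% of all genes had a higher change than Id2. The first of these steps was the least firm: limma's adjusted p was 0.175 with voom weights, 0.218 with the 2 populations fitted alone and 0.0815 without Pro-BMP replicate 3.

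**Figure D1:**
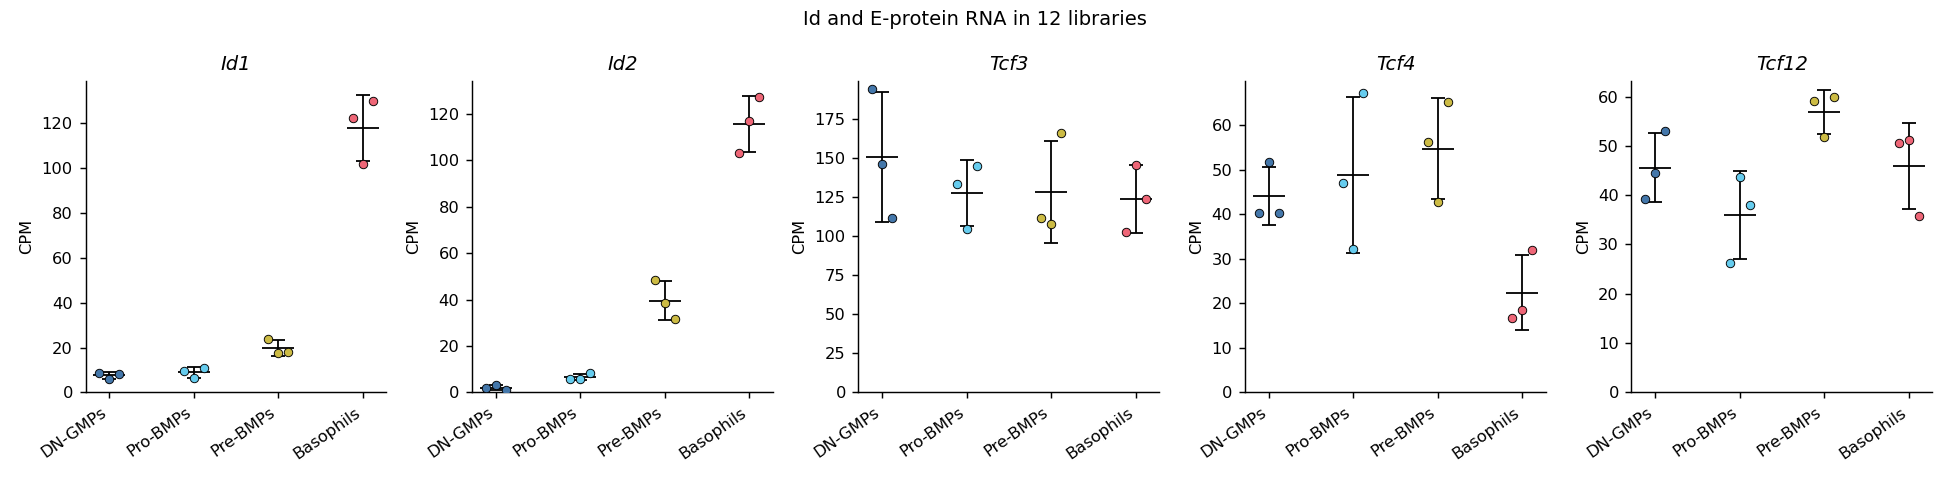
CPM of Id1, Id2, Tcf3, Tcf4 and Tcf12 (1 panel each, linear axis from 0) in the 3 libraries of each population, with horizontal bars at the mean and error bars of 1 SD. Id1 and Id2 are highest in basophils, at 102 to 130 and 103 to 127 CPM, Tcf4 is lowest there, at 16.7 to 32.0 CPM, and the populations overlap for Tcf3.

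Id1, best known as a gene switched on by BMP signals, passed the test at the steps to Pre-BMPs and to basophils but not at the step to Pro-BMPs. It stood at 8.74, 5.76 and 8.27 CPM in the DN-GMP libraries and at 9.66, 6.29 and 11.1 CPM in the Pro-BMP libraries. Levels were 23.8, 17.7 and 17.9 CPM in the Pre-BMP libraries and 122, 102 and 130 CPM in the basophil libraries. DN-GMPs and Pro-BMPs overlapped for Id1, Pre-BMPs lay above both and basophils lay far above Pre-BMPs.

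The log2 change of Id1 was 0.23 in Pro-BMPs against DN-GMPs, with a 95% interval of -0.36 to 0.82, and did not pass the test (limma adjusted p = 0.784). It was 1.16 in Pre-BMPs against Pro-BMPs (adjusted p = 0.0206 with limma), or 2.24-fold higher. That call was lost with the 2 populations fitted alone (adjusted p = 0.0502), without Pro-BMP replicate 2 (0.0747) and without Pre-BMP replicate 1 (0.0749). The last step held the larger change, 2.58 in basophils against Pre-BMPs (limma adjusted p = 3.19e-05), or 5.97-fold higher.

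The 2 Id genes divided their total log2 change differently over the 3 steps, given here as a description with no test of the difference between the genes. For Id2, 30.5% of the log2 change between DN-GMPs and basophils fell on the step to Pro-BMPs, 43.3% on the step to Pre-BMPs and 26.2% on the step to basophils. For Id1 these shares were 5.82%, 29.3% and 64.9%. The ratio of Id2 to Id1 CPM was 0.129 to 0.532 over the DN-GMP libraries, 0.590 to 0.918 over those of Pro-BMPs, 1.77 to 2.18 over those of Pre-BMPs, and 0.842 to 1.15 over those of basophils. The ratio was thus highest in Pre-BMPs, and no 2 neighbouring populations overlapped in it.

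Tcf3, the E protein on which B-cell development depends, did not pass the test in any comparison. It stood at 195, 146 and 112 CPM in DN-GMPs, 133, 105 and 145 CPM in Pro-BMPs, 112, 108 and 166 CPM in Pre-BMPs and 103, 146 and 124 CPM in basophils. The libraries of every population overlapped those of every other. The 6 log2 changes of Tcf3 lay between -0.26 and -0.01, none passed the test (limma adjusted p = 0.380 to 0.997), and none had an unadjusted p under 0.05. Their 95% intervals ran from -0.77 to 0.50 in all.

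Tcf4, the E protein that specifies plasmacytoid dendritic cells, was lower in basophils than in each progenitor population. It stood at 40.3, 51.8 and 40.4 CPM in DN-GMPs, 47.1, 32.3 and 67.3 CPM in Pro-BMPs, 56.2, 42.8 and 65.3 CPM in Pre-BMPs and 16.7, 18.5 and 32.0 CPM in basophils. The 3 progenitor populations overlapped one another, and all 3 basophil libraries lay below every progenitor library. The log2 change was -1.33 in basophils against Pre-BMPs (SE 0.308, limma adjusted p = 0.00691), or 2.51-fold lower.

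Against Pro-BMPs, basophils were lower in Tcf4 by a log2 change of -1.12 (limma adjusted p = 0.0127), and against DN-GMPs by -1.03 (limma adjusted p = 0.0172). The comparison with DN-GMPs lost its call without DN-GMP replicate 2 (adjusted p = 0.0584) and without basophil replicate 1 (0.0650) or 2 (0.0568). The comparison with Pro-BMPs lost it without Pro-BMP replicate 3 (0.0549). The 3 comparisons among progenitors did not pass the test (limma adjusted p = 0.534 to 0.934).

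Tcf12, a partner of Tcf3 in thymocytes, did not pass the test in any of the 6 comparisons. It stood at 39.1, 44.5 and 53.0 CPM in DN-GMPs, 26.2, 43.7 and 38.0 CPM in Pro-BMPs, 59.0, 51.8 and 59.9 CPM in Pre-BMPs and 50.6, 51.2 and 35.8 CPM in basophils. Pre-BMPs did not overlap Pro-BMPs or basophils and lay above both, but overlapped DN-GMPs. The log2 change in Pre-BMPs against Pro-BMPs was 0.69 (95% interval 0.21 to 1.18, limma adjusted p = 0.0758, unadjusted 0.00901). That change was called with voom weights (adjusted p = 0.0460) and with low genes left out (0.0489). Tcf12 in basophils against Pre-BMPs was called when the deposited scaling was replaced by library totals (log2 change -0.65, limma adjusted p = 0.0387), which itself lowered the median change of all genes by 0.32.

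**Figure D2:**
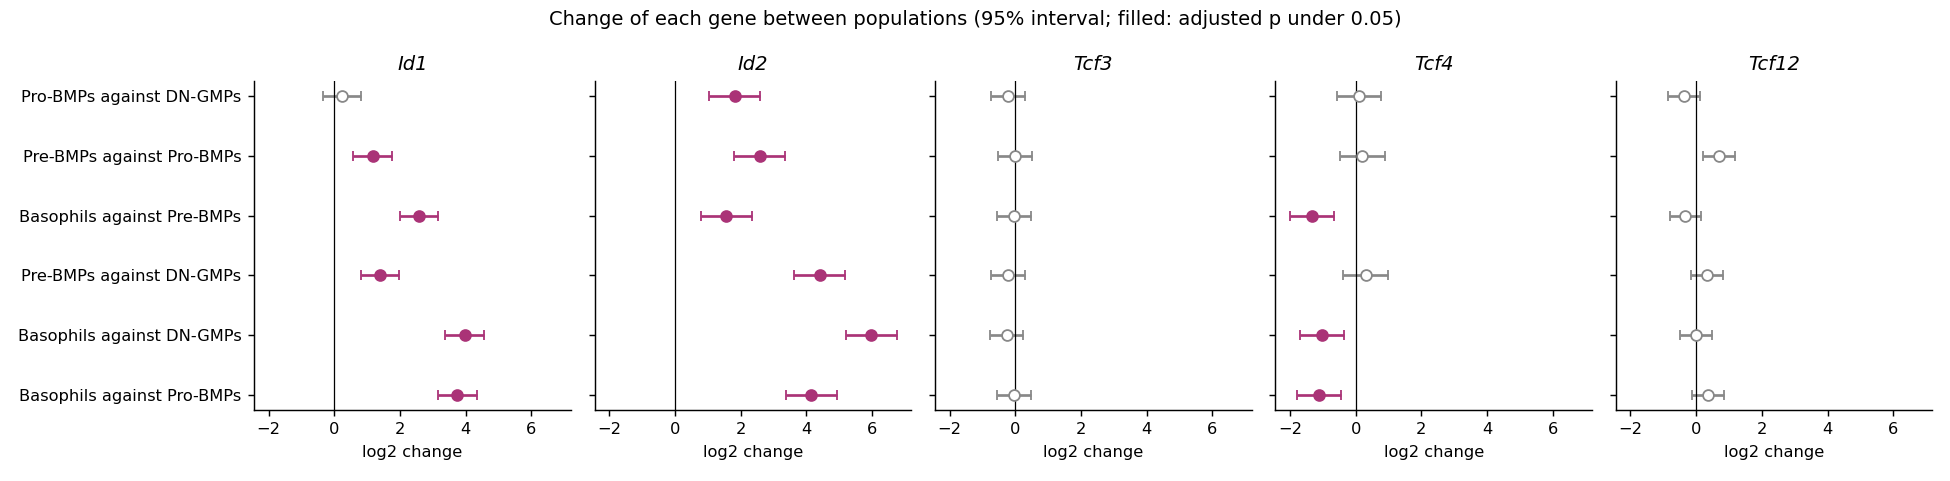
Log2 change (x axis) of the 5 genes in the 6 comparisons between populations, with 95% intervals from limma; in each label the first population is set against the second. Filled points passed an adjusted p of 0.05: 6 of 6 comparisons for Id2, 5 for Id1, 3 for Tcf4 and 0 for Tcf3 and Tcf12.

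The number of the 5 genes called was read against the share of all genes called in the same comparison. In Pro-BMPs against DN-GMPs, 1 of the 5 was called, higher, against 2.53% of all genes (2% higher and 0.536% lower). In Pre-BMPs against Pro-BMPs, 2 of the 5 were called, both higher, against 9.49% of all genes (4.8% higher and 4.69% lower). In basophils against Pre-BMPs, 2 of the 5 were higher and 1 lower, against 30.4% of all genes (13.9% higher and 16.5% lower), so much of the transcriptome changed with them at that step. The same 2 were higher and the same 1 lower in basophils against DN-GMPs, against 46.4% of all genes (23.2% higher and 23.2% lower), and in basophils against Pro-BMPs, against 41.1% (19.3% higher and 21.8% lower). Pre-BMPs against DN-GMPs had 2 of the 5 called, both higher, against 21.9% of all genes (12.2% higher and 9.69% lower). Counted by libraries that do not overlap, Pro-BMPs against DN-GMPs separated 1 of the 5 genes and 18.8% of all genes, Pre-BMPs against Pro-BMPs 3 of the 5 and 32.4%, and basophils against Pre-BMPs 4 of the 5 and 47.2%. Pre-BMPs against DN-GMPs separated 2 of the 5 and 39.8% of all genes, basophils against DN-GMPs 3 of the 5 and 54.4%, and basophils against Pro-BMPs 3 of the 5 and 54.1%. The 6 comparisons share populations and are not independent of one another.

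Levels of different genes were compared per length, as CPM divided by the median length in kilobases of each gene's protein-coding transcripts. On this scale Tcf3 was the highest of the 5 genes in DN-GMPs, Pro-BMPs and Pre-BMPs, with means of 53.1, 45.0 and 45.3 CPM per kb. In basophils Id1 and Id2 averaged 113 and 91.1 CPM per kb, above Tcf3 at 43.7. In DN-GMPs, Id1 and Id2 averaged 7.25 and 1.56 CPM per kb. Among the E-protein genes, Tcf3 supplied 63.6% ± 7.80 of the summed level in DN-GMPs, 60.9% ± 3.29 of it in Pro-BMPs, 55.1% ± 3.64 of it in Pre-BMPs and 68.1% ± 3.57 of it in basophils (SD, n = 3 each). With the union of all exons as the length, its share was 88.6%, 88.4%, 84.6% and 88.9% in the same order, so its size depends on the length used.

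Tcf4 averaged 18.8, 20.8, 23.3 and 9.54 CPM per kb from DN-GMPs to basophils and Tcf12 averaged 10.6, 8.34, 13.2 and 10.6. The order of Tcf4 and Tcf12 depends on the length used, because the annotated transcripts of both genes vary widely in length, and it turns round in the progenitors when the union of all exons is the length.

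Id1 and Id2 together made up 9.75% ± 1.36 of the summed level of the 5 genes in DN-GMPs and 15.6% ± 0.686 in Pro-BMPs. Their share was 38.2% ± 7.64 in Pre-BMPs and 76.1% ± 2.99 in basophils (SD, n = 3 each). By library the share was 8.62% to 11.3% for DN-GMPs, 14.8% to 16.1% for Pro-BMPs, 29.6% to 44.1% for Pre-BMPs and 72.7% to 78.3% for basophils, so the 4 populations did not overlap. The summed E-protein level averaged 82.5, 74.1, 81.8 and 63.9 CPM per kb in the same order and the summed Id level 8.82, 13.8, 50.1 and 204 CPM per kb. Most of the shift in the share lay in the Id genes. These are RNA levels of 5 genes and not amounts of protein or of dimers, and no test was run on the share.

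**Figure D3:**
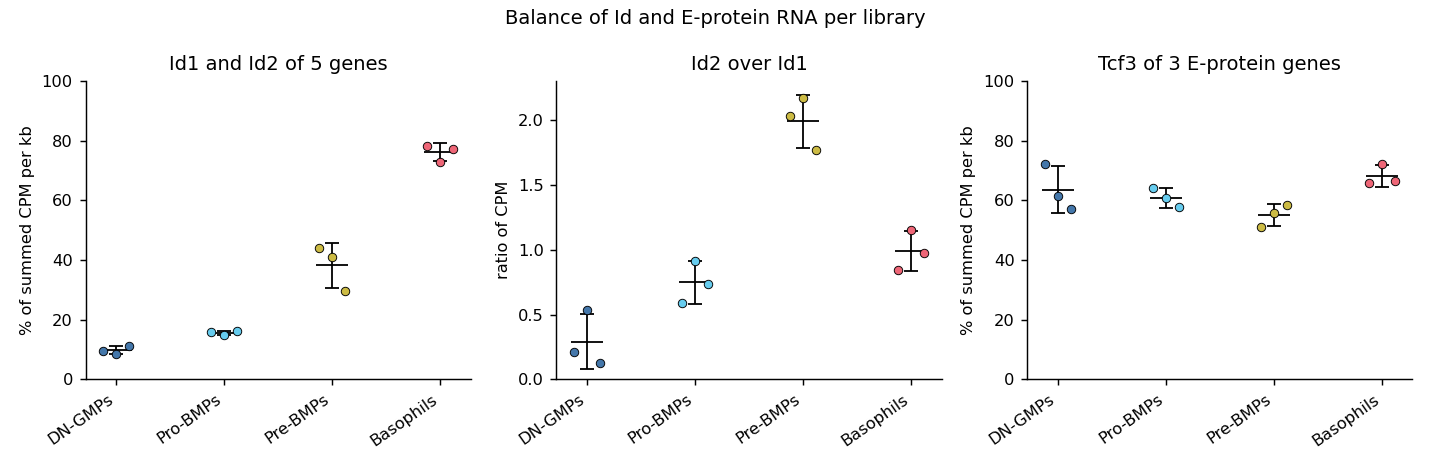
Shown are 3 measures per library in the 4 populations: the share of Id1 and Id2 in the summed CPM per kb of the 5 genes (left, %), the ratio of Id2 to Id1 CPM (middle) and the share of Tcf3 in the summed CPM per kb of the 3 E-protein genes (right, %), with means and 1 SD. The Id share runs from 8.62% in a DN-GMP library to 78.3% in a basophil library, while the Id2 to Id1 ratio is highest in Pre-BMPs, at 1.77 to 2.18.

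E proteins act in dimers with tissue-restricted basic helix-loop-helix proteins, of which 28 were listed and 5 had rows. Tal1, a partner of E proteins in blood stem cells, mast cells and red cells, averaged 8.23 CPM in DN-GMPs, 9.84 CPM in Pro-BMPs, 21.8 CPM in Pre-BMPs and 26.9 CPM in basophils. Tal1 was higher in basophils than in DN-GMPs by a log2 change of 1.81 (SE 0.342, limma adjusted p = 0.00115). Lyl1, a close relative of Tal1, averaged 16.3, 17.0, 4.78 and 11.3 CPM in the same order. Lyl1 was lower in Pre-BMPs than in Pro-BMPs by a log2 change of -1.83 (limma adjusted p = 0.00547) and higher in basophils than in Pre-BMPs by 1.22 (limma adjusted p = 0.0156). The rise of Lyl1 at the last step lost its call with library totals (0.90, adjusted p = 0.0570), without Pre-BMP replicate 1 (adjusted p = 0.0603) and without basophil replicate 2 (0.0596). In Pre-BMPs against DN-GMPs, Tal1 was higher by 1.51 (limma adjusted p = 0.00897) and Lyl1 lower by a log2 change of -1.76 (limma adjusted p = 0.00301).

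Mesp2, a mesoderm factor, was at 6.75, 0.694 and 4.94 CPM in basophils and at 0.0212, 0 and 0 CPM in DN-GMPs, a low and uneven level. The other 2 rows, Ascl2 and Bhlha15, did not pass the test in any comparison. Over the 5 rows, 2 were higher and 0 lower in basophils against DN-GMPs, near the share of all genes called there (46.4%, with 23.2% higher and 23.2% lower). Their median log2 change was -0.54, against -0.01 over all genes.

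E proteins and Tal1 or Lyl1 are held in larger complexes by the LIM-only proteins, LDB1 and GATA factors, and work through co-activators such as EP300 and co-repressors of the CBFA2T family. Of 22 such genes, 20 had rows. In basophils against DN-GMPs, 11 of the 20 were higher, 3 lower and 6 not called, against 23.2% of all genes higher and 23.2% lower. Their median log2 change was 0.69, against -0.01 over all genes. The counts were 3 higher and 0 lower in Pro-BMPs against DN-GMPs (2.53% of all genes called), 5 and 3 in Pre-BMPs against Pro-BMPs (9.49%), and 5 and 2 in basophils against Pre-BMPs (30.4%).

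Gata2, the GATA factor that basophils and mast cells depend on, averaged 23.2 CPM in DN-GMPs, 164 CPM in Pro-BMPs, 770 CPM in Pre-BMPs and 2104 CPM in basophils. It was already higher in Pro-BMPs than in DN-GMPs (log2 change 2.76, limma adjusted p = 0.000111) and its total log2 change in basophils against DN-GMPs was 6.51 (limma adjusted p = 1.16e-08). Gata1 averaged 5.92, 55.4, 205 and 151 CPM in the same order. Gata1 was higher in Pre-BMPs than in DN-GMPs by a log2 change of 5.96 (limma adjusted p = 0.000548). Its step from DN-GMPs to Pro-BMPs, 4.05 on the log2 scale (adjusted p = 0.0293 with limma), lost its call with the 2 populations fitted alone (0.168) and without any 1 of the 3 Pro-BMP libraries (0.0726 to 0.103). Without DN-GMP replicate 1, where Gata1 stood at 0.467 CPM, that change was 2.66. Gata3 averaged 2.80 CPM in Pre-BMPs and had 0 reads in all Pro-BMP libraries, at least 47.0-fold higher in Pre-BMPs when each Pro-BMP library is set at 3 reads.

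The LIM-only genes moved in different directions. Lmo2, the usual bridge between Tal1 and GATA factors, averaged 300 CPM in DN-GMPs, 213 CPM in Pro-BMPs, 78.4 CPM in Pre-BMPs and 95.1 CPM in basophils. Lmo2, named here after its values were seen, as are the other genes of this paragraph except Lmo1, was lower in Pre-BMPs than in Pro-BMPs by a log2 change of -1.45 (limma adjusted p = 0.000103). Lmo4 averaged 36.8, 209, 898 and 316 CPM, so that it was highest in Pre-BMPs. It was higher in Pre-BMPs than in DN-GMPs by a log2 change of 4.62 (limma adjusted p = 1.04e-08) and lower in basophils than in Pre-BMPs by -1.50 (limma adjusted p = 3.73e-05). Lmo1 averaged 11.2 CPM in DN-GMPs and 4.79 in Pro-BMPs, and was under 1 CPM in every Pre-BMP and basophil library.

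Among the cofactors, Cbfa2t3, a co-repressor found with Tal1, stood at 20.3, 25.0 and 17.8 CPM in DN-GMPs and averaged 28.9, 48.5 and 85.3 CPM from Pro-BMPs to basophils (log2 change 2.03 in basophils against DN-GMPs, limma adjusted p = 6.46e-06). Ep300, a histone acetyltransferase that E proteins recruit, averaged 56.7, 59.4, 80.2 and 187 CPM, and was higher in basophils than in Pre-BMPs by 1.23 (limma adjusted p = 3.87e-05). Ldb1, the adaptor at the core of the complex, stood at 65.8, 57.4, 47.9 and 83.0 CPM and was called only in basophils against Pre-BMPs (log2 change 0.80, limma adjusted p = 0.0333). The Ldb1 call was lost under 7 of its 13 alternatives. Cbfa2t3, Ep300 and Ldb1 were also named after their values were seen.

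**Figure D4:**
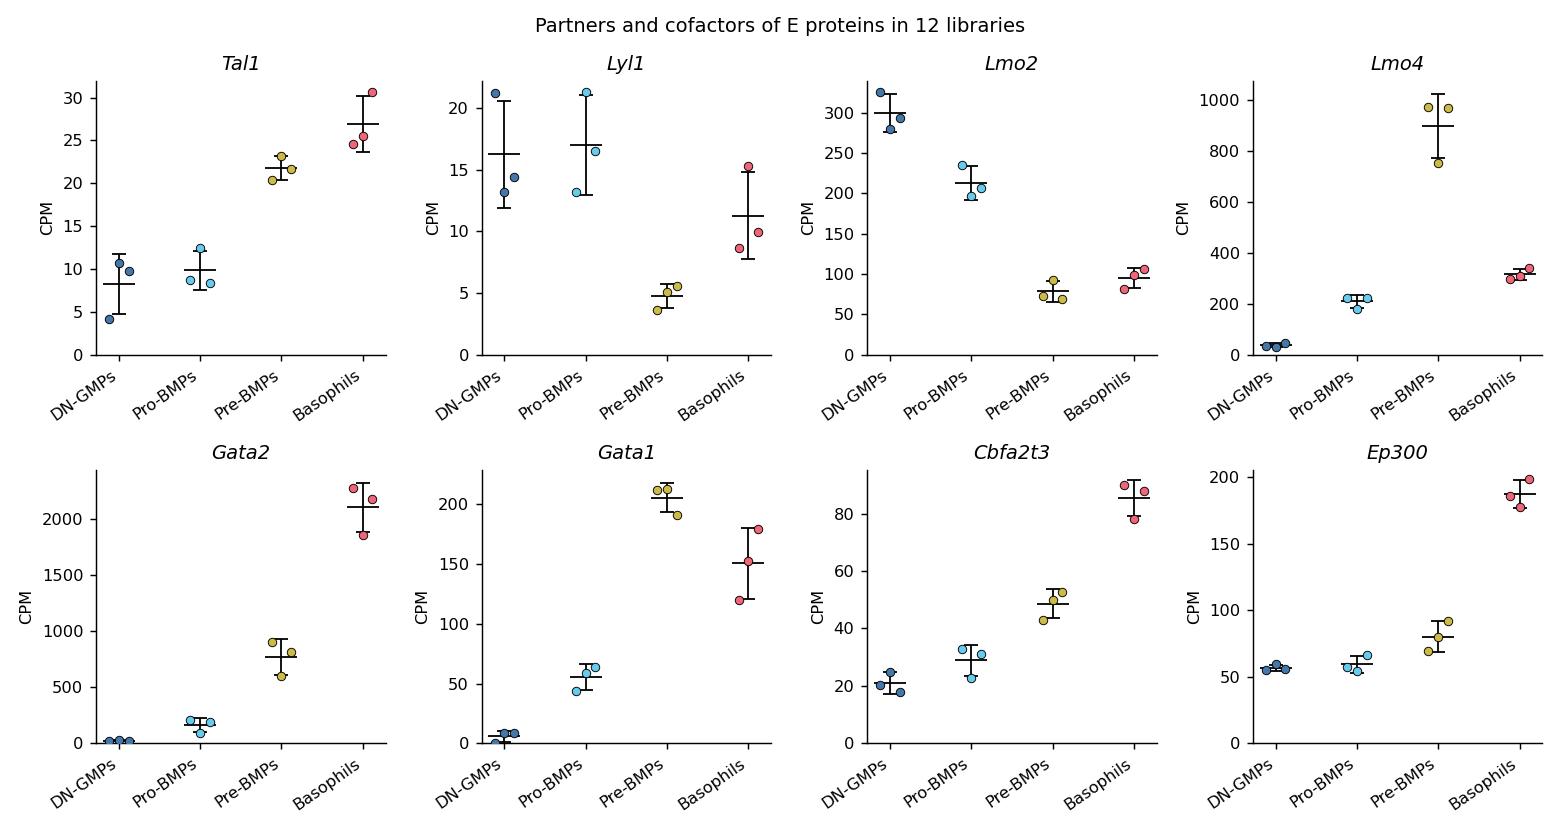
CPM of 8 E-protein partners and cofactors (1 panel each, linear axis from 0) in the 3 libraries of each population, with means and 1 SD. Gata2, Cbfa2t3 and Ep300 are highest in basophils, Lmo4 is highest in Pre-BMPs, and Lmo2 averages under 100 CPM in Pre-BMPs and basophils, against 300 CPM in DN-GMPs.

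Other proteins that bind E-boxes can compete with E-protein dimers for the same sites. Of 16 listed, 9 had rows, and in basophils against DN-GMPs 3 were higher, 1 lower and 5 not called, near the 46.4% of all genes called. Their median log2 change was 0.24, against -0.01 over all genes. The zinc-finger repressors Zeb1 and Zeb2, named after their values were seen, moved in opposite directions. Zeb1 averaged 16.5, 20.0, 36.4 and 46.0 CPM from DN-GMPs to basophils (log2 change 1.52 in basophils against DN-GMPs, limma adjusted p = 0.000245). Zeb2 averaged 149, 111, 119 and 54.0 CPM and was lower in basophils than in Pre-BMPs by -1.14 (limma adjusted p = 5.43e-05).

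Hes1, a repressor downstream of Notch, averaged 3.58 CPM in Pre-BMPs and under 0.5 CPM in the other 3 populations (log2 change 7.66 in Pre-BMPs against DN-GMPs, limma adjusted p = 0.00485, and 4.82 with 5 reads added). Bhlhe40, a repressor of the clock and of cytokine genes, averaged 22.1 CPM in basophils and at most 3.40 CPM in the progenitor populations. The limma F-test did not call Bhlhe40 (adjusted p = 0.0556). It was called in basophils against DN-GMPs (log2 change 4.60, limma adjusted p = 0.0366) but not against Pre-BMPs (2.64, limma adjusted p = 0.250). Its call in basophils against Pro-BMPs (log2 change 5.47, limma adjusted p = 0.0186) was lost without Pro-BMP replicate 1 (3.52, adjusted p = 0.0592) and without basophil replicate 1 (0.0504) or 3 (0.0508). Snai3 averaged 3.06 CPM in basophils and under 1 CPM elsewhere. Tfap4 was at 0.653 CPM in Pre-BMPs against 2.44 CPM in Pro-BMPs (limma adjusted p = 0.0449), and this call was lost with the replicate block (0.0657), with voom weights (0.0748), with the 2 populations fitted alone (0.0583) and without any 1 of the 6 libraries (0.0859 to 0.124).

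BMP and TGF-beta signals reach Id genes through receptors and SMAD proteins, of which 23 of 26 listed genes had rows. In basophils against DN-GMPs, 6 of the 23 were higher, 3 lower and 14 not called, against 46.4% of all genes called (23.2% higher and 23.2% lower). Their median log2 change was 0.34, against -0.01 over all genes. In Pro-BMPs against DN-GMPs limma called none (2 at an unadjusted p under 0.05 and 0 with voom weights), against 2.53% of all genes. In Pre-BMPs against Pro-BMPs 1 was called, higher, against 9.49% of all genes. That 1 was Tgfbr2, the type II TGF-beta receptor, named after its values were seen, which averaged 26.4, 25.8, 71.1 and 189 CPM from DN-GMPs to basophils. Tgfbr2 was higher in Pre-BMPs than in Pro-BMPs by a log2 change of 1.46 (limma adjusted p = 0.000199) and in basophils than in DN-GMPs by 2.85 (limma adjusted p = 1.06e-07).

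Bambi, a decoy receptor that blocks BMP and TGF-beta signals, went the other way. It stood at 25.0, 21.1 and 27.3 CPM in DN-GMPs, 23.5, 17.4 and 28.5 CPM in Pro-BMPs and 7.38, 7.94 and 11.4 CPM in Pre-BMPs, and had 0 reads in all 3 basophil libraries. With each basophil library set at 3 reads, Bambi was at least 353-fold lower in basophils than in DN-GMPs and at least 129-fold lower than in Pre-BMPs. Tgfbr3, a TGF-beta co-receptor, averaged 3.87, 7.10, 49.0 and 23.0 CPM and was higher in Pre-BMPs than in DN-GMPs (log2 change 4.75, limma adjusted p = 0.00291). Smurf1, a ubiquitin ligase for SMADs and receptors, averaged 36.1 CPM in basophils against 6.15 CPM in Pre-BMPs (log2 change 2.99, limma adjusted p = 0.00503).

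Smad6, an inhibitory SMAD, was low throughout, at 0, 0 and 0.646 CPM in basophils against 5.01, 1.69 and 1.91 CPM in DN-GMPs. Its call (log2 change -5.84, limma adjusted p = 0.0160, and -3.61 with 5 reads added) was lost without DN-GMP replicate 1 (0.0531) and without basophil replicate 1 (0.0599) or 2 (0.0597). Of the SMADs that carry the signal, Smad1, which responds to BMP receptors, averaged 65.2 CPM in basophils against 29.7 CPM in DN-GMPs (log2 change 1.17, limma adjusted p = 0.00592). Smad1 was not called in basophils against Pre-BMPs (log2 change 0.61, limma adjusted p = 0.136). Smad4, the common SMAD, averaged 114 CPM in basophils against 62.8 CPM in Pre-BMPs (log2 change 0.86, limma adjusted p = 0.00214, and 0.54 with library totals). Smad2, Smad3 and Smad5 were not called in basophils against DN-GMPs (limma adjusted p = 0.432 to 0.761). In that comparison Eng, of the same list, was lower by a log2 change of -2.44 (limma adjusted p = 0.00191). Ski, also listed, was higher there by 2.48 (limma adjusted p = 0.000355). Of the receptor genes on the list, Bmpr2 averaged 3.06, 1.82, 3.12 and 4.26 CPM from DN-GMPs to basophils. Acvr1 averaged 1.10, 1.38, 3.83 and 2.01 CPM, and neither gene was called in any comparison. The SMADs of this paragraph other than Smad6, and Eng, Ski, Bmpr2 and Acvr1, were also named after their values were seen.

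Genes that E proteins are known to control in lymphocytes numbered 33, of which 18 had rows. In basophils against Pre-BMPs, 9 of the 18 were higher, 2 lower and 7 not called, against 13.9% of all genes higher and 16.5% lower. Their median log2 change was 0.98, against -0.10 over all genes. In basophils against DN-GMPs, 8 were higher and 3 lower, against 23.2% of all genes higher and 23.2% lower. The list was not split by whether E proteins raise or lower a gene, so these counts give no direction of E-protein activity. In Pre-BMPs against Pro-BMPs, 3 were higher and 4 lower, against 9.49% of all genes called. In Pro-BMPs against DN-GMPs limma called none (0 at an unadjusted p under 0.05 and 0 with voom weights), against 2.53% of all genes. Il7r, the interleukin-7 receptor chain, stood at 135, 113 and 106 CPM in basophils, had 0 reads in all DN-GMP libraries and stayed under 0.2 CPM in every Pro-BMP and Pre-BMP library. Set against 3 reads in each DN-GMP library, its basophil level was at least 1769-fold higher.

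Of the same list, Notch1, Foxo1, Cdkn1b, Cdk6 and Gfi1 are named after their values were seen. Notch1, a receptor of the T-lineage pathway, averaged 28.3, 24.3, 15.6 and 125 CPM from DN-GMPs to basophils and was higher in basophils than in Pre-BMPs by a log2 change of 3.01 (limma adjusted p = 1.22e-05). Foxo1, a transcription factor of the insulin pathway and of early B cells, averaged 4.30, 6.66, 8.80 and 86.2 CPM (log2 change 4.98 in basophils against DN-GMPs, limma adjusted p = 0.000179). Cdkn1b, which encodes the cell-cycle inhibitor p27, averaged 9.23, 8.89, 26.7 and 55.1 CPM (log2 change 2.57 in basophils against DN-GMPs, limma adjusted p = 2.33e-06). Cdk6, a cell-cycle kinase that E proteins also regulate, averaged 467, 425, 491 and 149 CPM and was lower in basophils than in DN-GMPs by -1.68 (limma adjusted p = 1.11e-05).

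Gfi1, a repressor needed by neutrophil precursors, averaged 103 CPM in DN-GMPs, 106 CPM in Pro-BMPs, 9.25 CPM in Pre-BMPs and 16.9 CPM in basophils. Its log2 change in Pre-BMPs against Pro-BMPs was -3.54 (limma adjusted p = 7.44e-05). Igll1, a surrogate light chain, had 0 reads in basophils and averaged 2.08 CPM in DN-GMPs. Rag2, a recombinase subunit, averaged 0.109 CPM in Pre-BMPs and 6.64 CPM in Pro-BMPs (limma adjusted p = 0.0415), a call lost with the replicate block (0.0757) and in 5 of the 6 fits that left out 1 of these 6 libraries. Tcf7, a T-cell factor, had 0 reads in basophils and averaged 2.43 CPM in Pro-BMPs (limma adjusted p = 0.0310), and its call was lost in all 6 fits that left out 1 of these libraries.

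Id proteins are short-lived, and the list of their degradation machinery and of the retinoblastoma family that Id2 can bind held 15 genes, all with rows. In basophils against DN-GMPs, 5 of the 15 were higher, 6 lower and 4 not called, against 23.2% of all genes higher and 23.2% lower. Their median log2 change was -0.21, against -0.01 over all genes. Rbl2 and Rb1, both of the retinoblastoma family, were higher in basophils. Rbl1, also of that family and named after its values were seen, was not called in basophils against DN-GMPs (log2 change 0.058, limma adjusted p = 0.855). Rbl2 averaged 45.6, 49.6, 88.6 and 279 CPM from DN-GMPs to basophils (log2 change 2.66 in basophils against DN-GMPs, limma adjusted p = 1.11e-06). Rb1 averaged 24.2, 25.1, 38.3 and 87.3 CPM (log2 change 1.97, limma adjusted p = 0.000884).

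Usp1, the deubiquitinase known in human cells to stabilise Id proteins and named after its values were seen, averaged 173, 154, 126 and 100.1 CPM (log2 change -0.79 in basophils against DN-GMPs, limma adjusted p = 0.000523). Skp2, part of a ubiquitin ligase, averaged 54.2, 49.0, 28.5 and 17.4 CPM (log2 change -1.70, limma adjusted p = 0.00194). Sqstm1, a carrier of ubiquitinated proteins, averaged 140.4, 145, 199 and 366 CPM (log2 change 1.38, limma adjusted p = 7.20e-06).

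The genes whose log2 values ran most like each of the 5 over the 12 libraries were found by Pearson's r among 8127 genes with a mean above log2 of 10. The 12 libraries fall into 4 populations, so these r values describe mostly the order of the populations, and no p is given. Id1 ran most like Iqsec1 (r = 0.988), Mfsd5 (0.985) and Lcp2 (0.985), and opposite to G3bp1 (r = -0.99). Iqsec1 averaged 5.22, 6.17, 9.16 and 42.5 CPM from DN-GMPs to basophils, late like Id1. Id2 ran most like Fyb (r = 0.987), H2-T23 (0.987) and Padi2 (0.986), and opposite to Hnrnpd (r = -0.992). Padi2 averaged 14.0, 83.3, 464 and 1455 CPM, a gain at every step like that of Id2.

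Tcf4 ran most like Mterf4 (r = 0.928), Cep57l1 (0.902) and Pdgfrb (0.902), which averaged 7.18, 19.2 and 3.18 CPM in basophils and 23.0, 40.9 and 64.4 CPM in Pre-BMPs. Tcf3 and Tcf12, which the F-test did not call, had looser neighbours. Tcf3 ran most like Ccdc127 (r = 0.869), Supt7l (0.818) and Phtf2 (0.798), and Tcf12 most like Strada (r = 0.836), Mark3 (0.801) and Vps45 (0.800).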

How the data were processed

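The authors deposited 1 table of log2 values for 12 RNA-seq libraries (SmartSeq v4 and Nextera XT kits, per the labels' protocols, which do not mark strand). Trimmomatic, STAR, deepTools and HTSeq are named in the submitters' processing notes, with no version; build and annotation: not given in the sources used here. The values are log2 of reads plus 0.5 per 1000000 of a scaled library size, since 100% of values gave back a read number whole to within 0.01. CPM here is those reads per 1000000 of the scaled size, which ran from 40263971 to 58553590. Rows for no feature (6.65% to 12.6% of reads), ambiguous (3.63% to 4.14%) and not unique alignment (8.51% to 12.1%) were left out.

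The test was limma 3.58.1 in R 4.3.3, with a trended prior variance, 1 mean per population, all 12 libraries and no block, checked on simulated data. The simulation gave every gene the same setting of spread and changed only well-covered genes, so it does not cover calls of genes with few reads. Genes were matched to GENCODE M21 by ID, and the alignments of coding sequence used Biopython 1.88. The genes and lists were chosen with earlier results of these data known. At most 4 genes per list were named by rule: those called in a comparison whose populations do not overlap, ranked by size of change. Other genes of the lists are mostly said to be named after their values were seen. Mcpt8, Cpa3, Itga2, Il5ra, Nkg7, Ascl2 and Bhlha15 were also named outside the rule. Alternatives were a replicate block, voom weights, 5 reads added, 2 populations alone, quantile normalization, library totals, a filter on low means, each library left out and, added after seeing the data, another gene length. The same alternatives for genes of the lists were also added after seeing the data.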

Additional observations from a re-analysis of the deposited data

How the results depend on the processing

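The calls of Id2 in 5 comparisons, of Id1 in 4 and of Tcf4 in basophils against Pre-BMPs kept their direction and their side of the threshold under all 13 alternatives run for each. The calls that were lost are given with the results above; the cause was not tested. With voom weights 0 of the 5 genes were called in Pro-BMPs against DN-GMPs. With the 2 populations fitted alone this was also 0, with 228 genes called in all, and 1 of the 5 was called in Pre-BMPs against Pro-BMPs. Leaving out each library gave 0 to 1 of the 5 genes and 231 to 481 genes in all for Pro-BMPs against DN-GMPs (369 with all libraries), where 231 was without Pro-BMP replicate 3. For Pre-BMPs against Pro-BMPs it gave 1 to 2 of the 5 genes and 778 to 1093 in all (1382 with all libraries), where the counts were 885 and 778 without Pro-BMP replicates 1 and 2 and 792 without Pre-BMP replicate 3.

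With the union of exons as the length, the share of Id1 and Id2 was 15.2% for DN-GMPs, 22.5% for Pro-BMPs, 47.3% for Pre-BMPs and 81.1% for basophils, in the same order as before; the share of Tcf3 among the E-protein genes is given above. The changes that reversed were all uncalled. Tcf3 in Pre-BMPs against Pro-BMPs was 0.028 with quantile normalization and 0.028 with library totals, and -0.20 to 0.11 with libraries left out. Tcf12 in basophils against DN-GMPs was -0.13 with quantile normalization, -0.26 with library totals and -0.10 to 0.17 with libraries left out. With libraries left out, Tcf3 was -0.16 to 0.16 in basophils against Pre-BMPs and -0.18 to 0.086 in basophils against Pro-BMPs, and Tcf4 was -0.17 to 0.36 in Pro-BMPs against DN-GMPs and -0.061 to 0.47 in Pre-BMPs against Pro-BMPs.

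Library totals in place of the deposited scaling lowered the median change of all genes by 0.32, 0.26 and 0.29 in basophils against Pre-BMPs, DN-GMPs and Pro-BMPs, and gave 1379 higher and 3813 lower genes in basophils against Pre-BMPs, against 2019 and 2408 with the deposited scaling. The replicate block changed no call of the 5 genes (312 genes called in Pro-BMPs against DN-GMPs); same-numbered libraries had correlations of -0.12 to 0.13, with 2 of 18 pairs over 0.1, so the numbers were not taken to pair the libraries.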

Other observations

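Id2, Tcf3 and Tcf4 are best known from lymphocytes and plasmacytoid dendritic cells, so markers of those cells were read in the same libraries. Of 15 plasmacytoid dendritic cell markers 8 had rows, and they summed to 559 to 772 CPM in DN-GMPs, 352 to 441 CPM in Pro-BMPs, 238 to 310 CPM in Pre-BMPs and 305 to 370 CPM in basophils. In basophils against Pre-BMPs, where Tcf4 fell, 2 of the 8 were higher (Runx2 and Tex2) and 3 lower (Bcl11a, Clec10a and Irf8), against 13.9% of all genes higher and 16.5% lower. Irf8, which specifies dendritic cells and monocytes, averaged 331 CPM in DN-GMPs, 15.5 CPM in Pro-BMPs, 4.09 CPM in Pre-BMPs and 0.956 CPM in basophils. Among the progenitors Irf8 passed the test only in Pre-BMPs against DN-GMPs (limma adjusted p = 0.00762). It did not pass in Pro-BMPs against DN-GMPs or in Pre-BMPs against Pro-BMPs (limma adjusted p = 0.152 and 0.472). The log2 changes there were -4.50 and -1.92, and the libraries did not overlap in either pair. The SE of 1.41 came from all 12 libraries, with basophils at 2.57, 0.301 and 0 CPM. Tcf4 did not pass the test in any comparison among the progenitors. Bcl11a, another gene of plasmacytoid dendritic cells and lymphoid progenitors, averaged 24.4, 35.7, 88.5 and 7.13 CPM from DN-GMPs to basophils. The call of Irf8 in basophils against Pre-BMPs (limma adjusted p = 0.0420) was lost under 8 of its 12 alternatives. Its log2 change of -4.20 there was -2.11 without basophil replicate 3. Runx2, which plasmacytoid dendritic cells share with bone, averaged 42.9 CPM in basophils and 18.1 CPM in Pre-BMPs (log2 change 1.25, limma adjusted p = 0.00287), and Tex2 averaged 156 and 70.3 CPM in the same 2 populations (1.16, limma adjusted p = 0.00143). Irf7, an interferon regulator, averaged 4.48, 18.6, 30.7 and 75.5 CPM from DN-GMPs to basophils (log2 change 6.52 in basophils against DN-GMPs, limma adjusted p = 0.0147), a call lost with the 2 populations fitted alone (0.0677). Without DN-GMP replicate 3, where Irf7 had 0 reads, that change was 3.53. Runx2, Tex2 and Bcl11a were named after their values were seen.

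Of 20 markers of T cells, natural killer cells and innate lymphoid cells, 6 had rows. They summed to 650 to 782 CPM in DN-GMPs, 911 to 1001 CPM in Pro-BMPs, 853 to 981 CPM in Pre-BMPs and 516 to 628 CPM in basophils, most of it Nkg7. In basophils against Pre-BMPs, 0 of the 6 were higher and 3 lower (Gzmb, Nkg7 and Zbtb16), against 13.9% of all genes higher and 16.5% lower. Rora, which innate lymphoid cells share with Id2, averaged 1.90, 0.540, 6.66 and 38.6 CPM and did not pass the test at that step (limma adjusted p = 0.0974). In basophils against DN-GMPs, 3 of the 6 were higher and 1 lower, against 23.2% of all genes higher and 23.2% lower. Rora was among the higher ones there (log2 change 4.45, limma adjusted p = 0.00828). Zbtb16, a factor of innate-like T cells and innate lymphoid precursors, averaged 25.5 CPM in basophils and 68.7 CPM in Pre-BMPs (log2 change -1.45, limma adjusted p = 0.00268). Gzmb, a cytotoxic granule protease, averaged 20.0 CPM in basophils and 205 CPM in Pre-BMPs. Of 13 B-cell markers 3 had rows, summing to at most 77.8 CPM in any library, nearly all of it Cd79b. Of 14 endothelial and stromal markers 5 had rows. In the order from DN-GMPs to basophils they summed to 69.3 to 108, 109 to 137, 169 to 241 and 344 to 352 CPM. Pecam1, which leukocytes also express, averaged 343 CPM of the basophil sum. In basophils against DN-GMPs, 1 of the 5 was higher and 2 lower, against 23.2% of all genes higher and 23.2% lower. The median log2 change of the 5 was -1.86, against -0.01 over all genes. Pdgfrb, of this list, averaged 64.4 CPM in Pre-BMPs and 3.18 CPM in basophils. The part of other cells in the changes of Id and E-protein genes was not tested.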
